A study of Homo sapiens with 18 samples.

Results

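The Hedgehog pathway genes described here are SHH, PTCH1, SMO, GLI1, GLI2, GLI3, SUFU, HHIP and BOC. They were chosen by symbol, as every entry of the deposited transcript table whose gene name was one of these 9, which gave 77 of 145326 transcripts. The estimated counts and the TPM (a level scaled to the library total and to transcript length) of these transcripts were added up per gene, giving 9 of 32490 gene sums in each of 18 libraries. The libraries came from U87mg, a human glioblastoma line, and DAOY, a human line labelled as desmoplastic cerebellar medulloblastoma, each after 0, 2 or 8 h in a direct current electrical field (dcEF) of 250 V/m, with 3 replicates per combination of line and time. In all 6 groups the cells were spheroidal aggregates embedded in growth-factor-reduced Matrigel and left to acclimate in an electrotaxis channel for a day before the exposure. The 0 h group of each line received no field. Each library pooled the channels of one replicate, and each tumor type was represented by a single established line. Because no channel kept for 2 or 8 h without a field was among the samples analysed, the field and the added time in the channel cannot be told apart, and with 1 line per tumor type neither can the line and the tumor type.

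Hedgehog ligands such as SHH bind the receptor PTCH1, helped by coreceptors such as BOC, and binding relieves the block that PTCH1 places on the membrane protein SMO. Active SMO at the primary cilium releases the zinc finger transcription factors GLI1, GLI2 and GLI3 from SUFU, and GLI2 and GLI3 from proteolytic processing. PTCH1, HHIP and GLI1 are themselves transcribed in response, so that PTCH1 and HHIP act as feedback inhibitors. The pathway drives the division of granule neuron precursors in the developing cerebellum, is activated in one molecular class of medulloblastoma and has been studied in glioma.

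The libraries held 8341976 to 15610886 estimated counts in U87mg and 8491703 to 11508606 in DAOY. DAOY 0 h replicate 0 had the lowest median correlation with the other replicates of its group, 0.954 against 0.961 to 0.986 in the other 17 libraries. The samples are bulk RNA, so fewer cells of a type and less RNA per cell cannot be told apart. Of the cerebellar markers, EN2 lay at 4.10 to 9.51 TPM and OTX2 at 1.15 to 2.44 TPM in DAOY and both were listed at 0 in all 9 U87mg libraries, whereas BARHL1 was listed at 0 in all DAOY libraries and NEUROD1 did not exceed 0.176 TPM. The other 3 listed were present in both lines, with PAX6 at 17 to 35.1 TPM in DAOY and 19.3 to 35.3 TPM in U87mg, ZIC1 at 8.28 to 15.8 and 2.53 to 12 TPM, and ZIC2 at 6.86 to 20.9 and 4.02 to 9.68 TPM. Among the 9 listed glial markers, VIM was at 4000 to 5340 TPM in U87mg and 1720 to 2970 TPM in DAOY. CD44 was at 2570 to 3550 and 885 to 1530 TPM, so both were abundant in both lines. In U87mg GFAP lay at 0.340 to 3.11 TPM and S100B did not exceed 0.173 TPM. In DAOY these did not exceed 0.855 and 0.398 TPM. NES was higher in U87mg (5.58 to 9.25 against 0.171 to 0.715 TPM). SOX2 (2.93 to 6.92 against at most 0.0858 TPM) and AQP4 (0.106 to 1.32 against 0 TPM) were higher in DAOY. PTPRC of the blood cell list and CDH5 of the endothelial list stayed at or below 0.663 and 0.220 TPM in every library. PECAM1, another of the 3 listed endothelial genes, was at 5.46 to 12.9 TPM in DAOY and 0.598 to 2.30 TPM in U87mg. CD68, a lysosomal protein of macrophages also made by other cells, was at 247 to 602 TPM in U87mg and 10.8 to 43.9 TPM in DAOY, the 3 listed blood genes summed to 248 to 602 TPM and 12.8 to 44.6 TPM, and their part in the results below was not tested.

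Before any exposure, 8 of the 9 genes differed between the lines. SHH, PTCH1, SMO, GLI3, HHIP and BOC were higher in DAOY, and GLI1 and GLI2 were higher in U87mg. SUFU did not pass the test. A gene was called here at a false discovery rate (FDR) below 0.05 over all 16482 genes tested and a log2 fold difference of at least 1 in edgeR's quasi-likelihood test. By the same rule 41.2% of all genes tested were called, 23.4% as higher and 17.8% as lower in DAOY, so the lines differed widely outside the pathway too. The median log2 difference of the 9 genes was 1.51, against 0.05 over all genes tested. SHH, SMO and HHIP did not pass the filter on low counts within U87mg, nor GLI1 within DAOY, so these 4 were tested through the line in which they were high. The CPM (counts scaled to the effective library size) of the groups did not overlap for 7 of the 9 genes, and did not overlap for 59.3% of all genes.

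**Figure D1:**
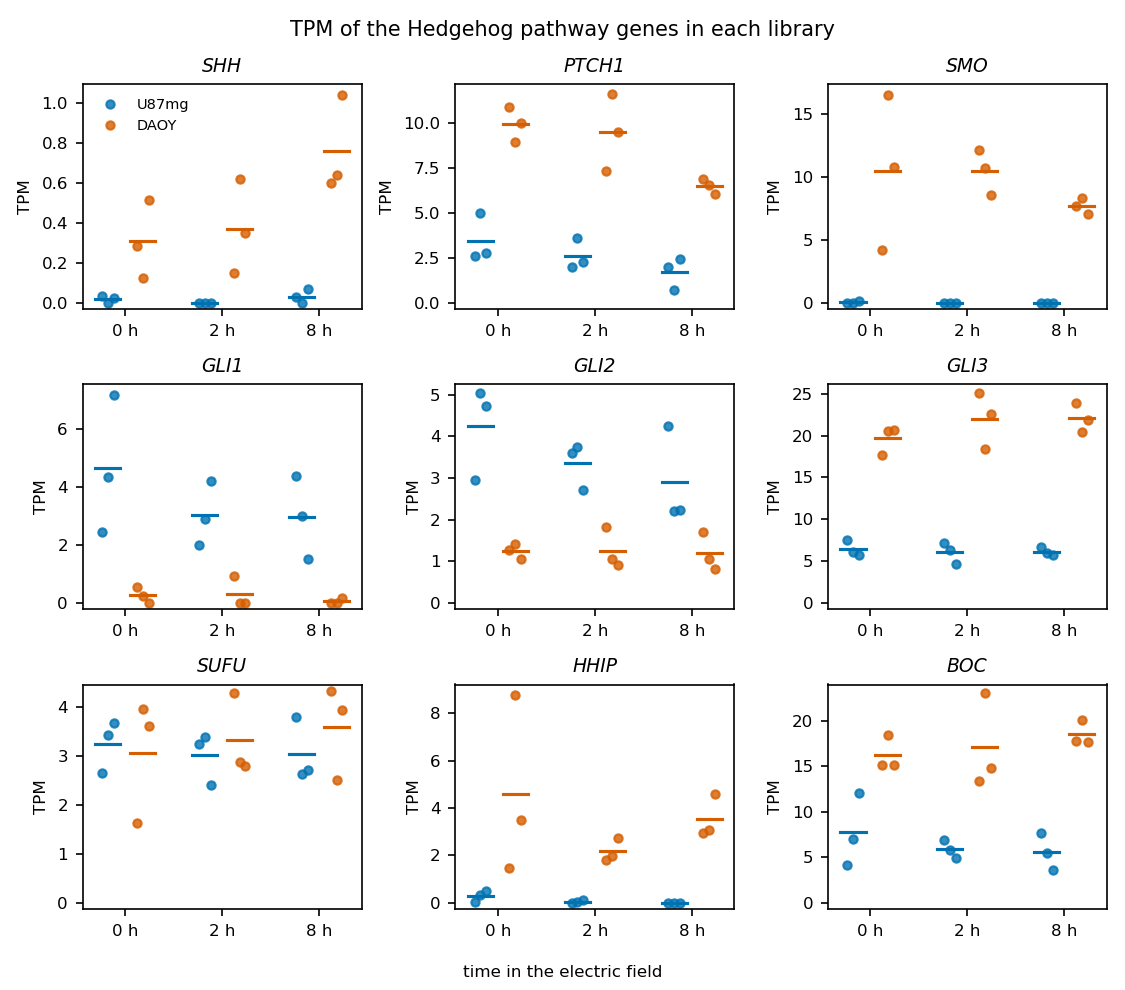
TPM (vertical axes, linear, each with its own range) of the 9 genes in each of the 18 libraries by time in the field (horizontal axes), with U87mg in blue and DAOY in orange. Points are libraries and bars are the means of 3 replicates. SMO was at 0 in 8 of 9 U87mg libraries and at 4.18 to 16.5 TPM in DAOY, whereas SUFU overlapped between the lines at every time.

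SHH, the secreted ligand of the pathway, was near 0 in U87mg and among the lowest of the genes in DAOY. At 0 h it was at 0.283, 0.123 and 0.516 TPM in the 3 DAOY libraries, from 8, 4 and 13 estimated counts. In U87mg it was at 0.033, 0 and 0.0234 TPM, from 1, 0 and 1 counts. The groups did not overlap, and the ratio of the summed counts was 14.8 with an exact 95% counting interval of 3.69 to 129, which covers counting error only. The fitted log2 difference was 3.68 ± 0.89 (SE; edgeR adjusted p = 0.00207). On log2(TPM + 1) values, which shrink differences of low genes, limma gave 0.35, short of the size needed for a call. SHH lies at chr7:155799986-155812273 on the minus strand (GRCh38, GENCODE 29), and 92.0% of its DAOY TPM came from the full transcript SHH-201.

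The other ligand genes IHH and DHH stayed at or below 0.169 and 0.0906 TPM in all 18 libraries and did not pass the filter on low counts. Of the 8 listed genes for ligands and their release, 4 were tested. By the rule that called 23.4% of all genes tested as higher in DAOY at 0 h, 3 of these were called as higher. They were HHAT, which attaches palmitate to the ligand (log2 difference 1.28 ± 0.23, SE; edgeR adjusted p = 0.000108), DISP2, a relative of the ligand exporter DISP1 (1.55 ± 0.25), and SCUBE3, a secreted protein of the family that carries the ligand (1.28 ± 0.44). DISP1 itself had a log2 difference of -0.9997 ± 0.20, just short of the size that counted as a call.

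PTCH1, the receptor that holds SMO inactive, was at 10.9, 8.92 and 9.99 TPM in DAOY at 0 h and at 2.62, 4.98 and 2.76 TPM in U87mg. The lowest DAOY library lay above the highest U87mg library. The log2 difference was 1.83 ± 0.25 (SE; edgeR adjusted p = 5.42e-06), a ratio of 3.55 in summed normalised counts. PTCH1 lies at chr9:95442980-95517057 on the minus strand. Its 24-exon transcript PTCH1-206 took 57.7% of its estimated counts in DAOY and 42.1% in U87mg, but 19.8% and 12.7% of its TPM, since short non-coding or partial transcripts with few counts weigh more per length. An antisense transcript that GENCODE 29 names AL161729.1 shares 711 exonic bases with PTCH1 and was not matched in the table, so reads there could not be assigned with certainty.

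PTCH1 is the gene of the pathway for which control by GLI proteins is best known, so the letters GACCACCCA, the consensus of GLI binding, and their reverse complement TGGGTGGTC were looked for on both strands in the 250 bases before the RefSeq starts of the genes (GRCh38.p14). Of the 9 genes, 7 had a start in the RefSeq table used, 13 starts in all. A match was found at 1 of these starts, a PTCH1 start at chr9:95509267-95509516 on the minus strand, beginning 172 bases before it. The window is shown with the match in capitals, because it was the sole match among the genes, and 0.199% of the 35116 promoters in the table held one. Of the 23 PTCH1 transcripts in the table, 0 began within 250 bases of this start.
PTCH1, start with the GLI consensus: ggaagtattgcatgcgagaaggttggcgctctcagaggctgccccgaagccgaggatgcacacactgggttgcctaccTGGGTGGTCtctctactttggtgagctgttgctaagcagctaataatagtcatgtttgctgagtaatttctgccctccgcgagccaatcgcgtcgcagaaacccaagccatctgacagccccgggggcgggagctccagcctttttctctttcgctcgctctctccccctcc

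The match is a description of the letters and not evidence of binding. PTCH1 transcripts that began within 250 bases of the RefSeq start after chr9:95508041-95508290, the start of PTCH1-206, took 22.7% of the TPM of the gene in DAOY and 12.7% in U87mg. Those at the most upstream RefSeq start took 0.624% and 1.71%. That share depends on the 250 bases. PTCH1-223, which began at chr9:95516658, just outside them, took 14.3% in DAOY and 14.7% in U87mg, from 16 and 6 counts.

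BOC, an immunoglobulin superfamily coreceptor that binds SHH, was at 15.1, 18.4 and 15.1 TPM in DAOY at 0 h and at 4.11, 7.04 and 12.1 TPM in U87mg. In TPM the groups were apart, whereas in CPM the lowest DAOY library (9.80 CPM, replicate 0) lay just below the highest U87mg library (9.82 CPM, replicate 2). The log2 difference was 1.41 ± 0.34 (SE; edgeR adjusted p = 0.0017), and 0.96 ± 0.33 with counts scaled for transcript length, which was no longer large enough to be called. BOC (chr3:113211003-113287459, plus strand) shares 513 exonic bases with those of CFAP44 on the opposite strand. CFAP44 was at 6.14 to 20.3 TPM in DAOY and 4.65 to 10.9 TPM in U87mg, and whether Kallisto used the strand of the reads is not given in the sources used here.

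Of the 5 other receptors and coreceptors listed, 3 were tested, and 2 of these were called as higher in DAOY at 0 h, against 23.4% of all genes tested. Within U87mg 1 of the 5, CDON, passed the filter on low counts, against 3 in DAOY. GAS1 and GPC3 were thus tested through DAOY, where they were high, and the 2 calls cannot be read as a direction of the list. GAS1, a membrane-anchored coreceptor, was at 12.1, 71.7 and 23.5 TPM in DAOY at 0 h and at 0.212, 0.343 and 0 TPM in U87mg, a ratio of 217 in summed normalised counts. GPC3, a glypican that competes with PTCH1 for the ligand, was listed at 0 in all 9 U87mg libraries and was at least 28.8-fold higher in DAOY at 0 h, taking 3 counts over the group as the floor for U87mg. CDON, the closest relative of BOC, was at 4.67 to 5.60 TPM in DAOY and 3.25 to 7.32 TPM in U87mg at 0 h, with overlapping groups and a log2 difference of 0.21 ± 0.35.

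SMO, the membrane protein that carries the signal inwards, showed the widest separation of the 9 genes. In DAOY at 0 h it was at 4.18, 16.5 and 10.8 TPM, from 98, 406 and 213 estimated counts. In U87mg it was at 0, 0 and 0.154 TPM, the last from a single count. Over all times 8 of 9 U87mg libraries were listed at 0, and in DAOY the lowest library held 98 counts. The ratio of summed normalised counts at 0 h was 848 with a counting interval of 152 to 33550, and the fitted log2 difference was 9.13 ± 0.61 (SE; edgeR adjusted p = 1.97e-08). At 2 h and 8 h SMO was at least 191-fold and at least 194.5-fold higher in DAOY. The 12-exon coding transcript SMO-201 took 98.2% of the SMO counts in DAOY, and the single U87mg count fell on a transcript annotated for nonsense-mediated decay. SMO lies at chr7:129188872-129213545 on the plus strand, where 129 exonic bases overlap the antisense gene AC011005.4, which was not matched in the table.

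The 250 bases before the RefSeq starts of SMO (chr7:129188383-129188632, plus strand) and of HHIP (chr4:144645906-144646155, plus strand), the genes with 0 counts over whole U87mg groups for which DAOY held over 100, are shown with each CG pair in capitals. The SMO window held 25 CG pairs, more than 78.4% of all 35116 promoters, and the HHIP window held 34, more than 93.2%, where the median promoter held 11. Such windows were not particular to these genes. The richest windows of PTCH1, GLI2 and BOC, which had counts in every U87mg library, held 25, 26 and 28. Other starts of PTCH1, GLI2 and BOC held 6 to 19. The SHH window held 7, although SHH was near 0 in U87mg.
SMO: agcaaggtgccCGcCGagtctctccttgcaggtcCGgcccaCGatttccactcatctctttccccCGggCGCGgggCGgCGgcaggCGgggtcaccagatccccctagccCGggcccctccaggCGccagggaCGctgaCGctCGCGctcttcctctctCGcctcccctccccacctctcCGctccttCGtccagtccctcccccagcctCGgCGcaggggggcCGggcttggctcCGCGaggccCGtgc
HHIP: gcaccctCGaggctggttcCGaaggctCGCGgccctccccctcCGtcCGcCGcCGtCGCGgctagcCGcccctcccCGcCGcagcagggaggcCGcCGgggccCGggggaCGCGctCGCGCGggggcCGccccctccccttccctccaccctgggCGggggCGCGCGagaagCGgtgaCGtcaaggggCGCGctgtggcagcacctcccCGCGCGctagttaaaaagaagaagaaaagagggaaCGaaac

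Of the 10 listed regulators of SMO, all were tested and 4 were called at 0 h, 2 in each direction, where 41.2% of all genes tested were called. GPR161, a ciliary receptor that opposes the pathway, and ARRB1, an arrestin that moves SMO, were higher in DAOY by log2 differences of 1.17 ± 0.22 and 1.27 ± 0.35. EVC, a cilium base protein that passes on the SMO signal, and ARRB2, the other arrestin, were lower, with log2 differences of -1.06 ± 0.18 and -1.07 ± 0.25. The median of the list was 0.24. Of 6 genes for transport in the cilium none reached the size needed for a call at 0 h. In edgeR's test 2 had an unadjusted p under 0.05, a count not compared with the share of all genes. The larger of these 2 differences was that of DYNC2H1, the motor of retrograde transport, at a log2 value of 0.92 ± 0.22 (SE, edgeR adjusted p = 0.00141).

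Of the 3 transcription factors, GLI3 was far the most abundant in DAOY, and the other members of the family went the opposite way between the lines. GLI1, the activator that is itself a target of the pathway, was at 0.561, 0.245 and 0 TPM in DAOY at 0 h, from 3, 6 and 0 counts. In U87mg it was at 2.44, 4.36 and 7.19 TPM, from 9, 16 and 31 counts. The groups did not overlap, and the log2 difference was -2.32 ± 0.78 (SE; edgeR adjusted p = 0.0162). Without DAOY 0 h replicate 2 it was -1.80 (edgeR adjusted p = 0.0587) and without U87mg 0 h replicate 2 it was -1.99 (adjusted p = 0.0677), and in both cases the call was lost. The TPM of GLI1 in U87mg rested on few counts, since the 314-base transcript GLI1-205, which keeps an intron, took 62.0% of the TPM and 20.5% of the 134 counts, while the 10-exon transcripts GLI1-204 and GLI1-207 took 15 and 40 counts. With counts scaled for transcript length the log2 difference was -4.43. GLI1 lies at chr12:57460135-57472262 on the plus strand.

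GLI2, the main activator at the start of the response, was at 1.27, 1.41 and 1.05 TPM in DAOY at 0 h and at 2.95, 5.03 and 4.72 TPM in U87mg. Every U87mg library lay above every DAOY library. The log2 difference was -2.12 ± 0.30 (SE; edgeR adjusted p = 8.71e-06), and the 13-exon transcript GLI2-203 took 80.6% of the counts in U87mg and 86.6% in DAOY. GLI2 lies at chr2:120735623-120992653 on the plus strand.

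GLI3, which is processed mainly to a repressor, was at 17.7, 20.6 and 20.7 TPM in DAOY at 0 h and at 7.57, 6.14 and 5.71 TPM in U87mg. The lowest DAOY library lay above the highest U87mg library. The log2 difference was 1.51 ± 0.15 (SE; edgeR adjusted p = 1.25e-07). The 15-exon transcript GLI3-201 held 99.1% of its counts in DAOY and 99.4% in U87mg. GLI3 lies at chr7:41960950-42237870 on the minus strand.

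SUFU, which binds GLI proteins and keeps them inactive, did not pass the test. At 0 h it was at 1.62, 3.95 and 3.61 TPM in DAOY and at 2.64, 3.43 and 3.67 TPM in U87mg, so the groups overlapped, with the lowest value in DAOY replicate 0. The log2 difference was -0.14 ± 0.26 (SE; edgeR adjusted p = 0.652), and it was 0.09 without that library. SUFU lies at chr10:102503987-102633535 on the plus strand.

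Of 11 other genes for GLI processing and turnover, all were tested and 3 were called at 0 h, where 41.2% of all genes tested were called. PRKACB, a catalytic subunit of protein kinase A, which phosphorylates GLI proteins for processing, was higher in DAOY by a log2 difference of 2.34 ± 0.20 (SE; edgeR adjusted p = 2.07e-08). KIF7, the ciliary kinesin that organises GLI proteins at the cilium tip, and NUMB, an adaptor that sends GLI1 for degradation, were lower, with log2 differences of -1.76 ± 0.29 and -1.94 ± 0.19. The remaining 8 had log2 differences between -0.51 and 0.52.

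HHIP, a membrane protein that binds and sequesters the ligand, was at 1.48, 8.78 and 3.49 TPM in DAOY at 0 h and at 0.0429, 0.321 and 0.490 TPM in U87mg, from 35, 67 and 24 against 3, 2 and 4 counts. The groups did not overlap, although the DAOY libraries differed several-fold among themselves in TPM. The log2 difference was 3.95 ± 0.41 (SE; edgeR adjusted p = 6.57e-07), a ratio of 16.6 in summed normalised counts. The 13-exon transcript HHIP-201 held 67.0% of the HHIP counts in DAOY, but 11.5% of the HHIP TPM. HHIP lies at chr4:144646021-144745271 on the plus strand and shares 178 exonic bases with the antisense gene HHIP-AS1, which was at 0 to 1.91 TPM in DAOY and 0 to 0.643 TPM in U87mg.

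**Figure D2:**
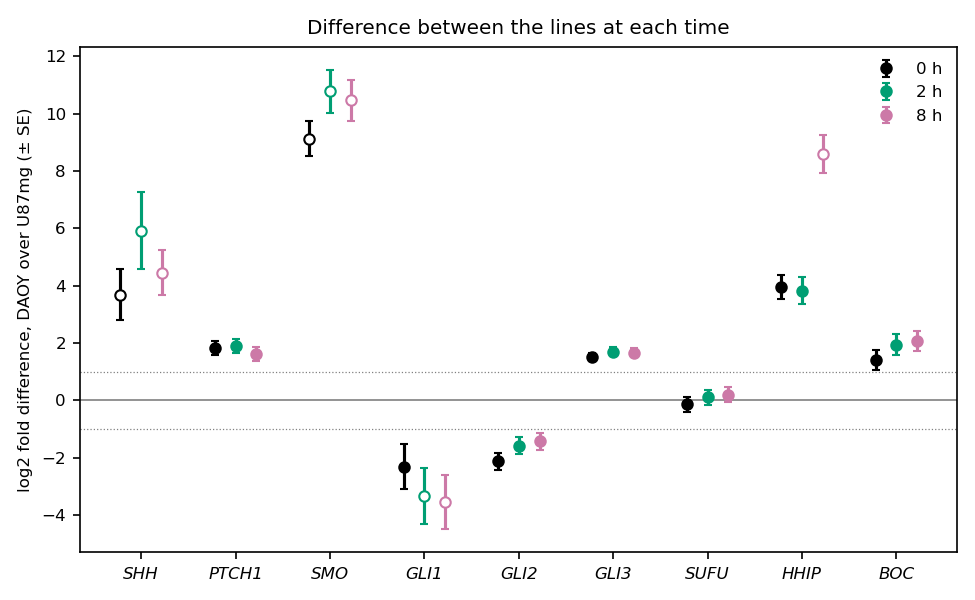
Log2 fold difference of DAOY over U87mg (vertical axis) for the 9 genes (horizontal axis) at 0, 2 and 8 h, from the fit of all 18 libraries, with bars of 1 SE and dotted lines at the size needed for a call. Open points mark genes with at most 3 summed counts in one of the lines, whose fitted size depends on the offset the fit adds. At all 3 times 6 genes lay above the upper line, GLI1 and GLI2 lay below the lower line, and SUFU stayed between them.

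The difference between the lines was measured again at 2 h and 8 h in other libraries. The same 8 genes were called with the same signs at both times, where 41.4% and 41.9% of all genes tested were called. Groups did not overlap for 8 of 9 genes at each of these times, BOC included, against 69.5% and 68.8% of all genes. The log2 differences of PTCH1 were 1.89 ± 0.25 and 1.61 ± 0.25, those of GLI3 1.70 ± 0.15 and 1.66 ± 0.15, and those of BOC 1.94 ± 0.36 and 2.08 ± 0.35 (SE). GLI2 was lower in DAOY, with log2 differences of -1.58 ± 0.29 and -1.43 ± 0.30. On log2(TPM + 1) values in limma these were -0.96 and -0.81, short of the size needed for a call. Summed counts of GLI1 in DAOY were 3 at each of these times against 31 and 47 in U87mg, ratios of 11.2 (counting interval 3.49 to 57.2) and 13.5 (4.34 to 67.7). The fitted log2 difference of GLI1 at 2 h moved between -6.58 and -2.80 as single libraries were left out, the largest size being without DAOY 2 h replicate 0, the sole library of that group with GLI1 counts. At 8 h it was -3.56 ± 0.94 (SE) and moved between -6.81, without DAOY 8 h replicate 2, which held all 3 counts, and -2.96.

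SHH was at least 6.46-fold higher in DAOY at 2 h, where its U87mg libraries held 0 counts, and 24.8-fold higher at 8 h (counting interval 8.11 to 123). HHIP was 15.1-fold higher at 2 h and at least 52.3-fold higher at 8 h, with 0 U87mg counts in the latter group. SUFU had log2 differences of 0.11 ± 0.26 and 0.19 ± 0.26 and was not called.

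Within each line the genes could be ordered by TPM, averaged over its 9 libraries. In DAOY the order was GLI3 (21.3 ± 2.41, SD, n = 9), BOC (17.3 ± 3.02), SMO (9.55 ± 3.51), PTCH1 (8.65 ± 2.01), HHIP (3.44 ± 2.22), SUFU (3.32 ± 0.92), GLI2 (1.23 ± 0.35), SHH (0.48 ± 0.29) and GLI1 (0.21 ± 0.33). The ranges of every pair of neighbours in that order overlapped. Within single libraries, BOC was above SMO, PTCH1 above HHIP and SUFU above GLI2 in 9 of 9, whereas SMO was above PTCH1 in 6 and HHIP above SUFU in 3. These sums hold all transcripts of a gene. Coding transcripts took 24.2% of the DAOY TPM of HHIP and 37.7% of that of PTCH1, against 100% of that of SUFU. The 563-base HHIP-205, annotated as a processed transcript, took 36.6% of the HHIP TPM from 31 of 343 counts. In U87mg BOC (6.40 ± 2.51) and GLI3 (6.22 ± 0.87) led, followed by GLI1 (3.56 ± 1.72), GLI2 (3.49 ± 1.04), SUFU (3.10 ± 0.51) and PTCH1 (2.59 ± 1.18), all with overlapping ranges. HHIP (0.11 ± 0.18), SMO (0.02 ± 0.05) and SHH (0.02 ± 0.02) came last, and the range of PTCH1 lay above that of HHIP without overlap. The summed TPM of GLI1 and GLI2 were thus close in U87mg, although GLI2 had 1457 counts there and GLI1 134. Of the GLI1 TPM, 62.0% came from 27 counts on the 314-base GLI1-205. Coding transcripts took 36.0% of the TPM of GLI1 and 89.7% of that of GLI2. The 12-exon GLI1-201 and the 10-exon GLI1-207 had means of 0.101 and 0.172 TPM. GLI2-203 had one of 2.47 TPM, so the long transcripts of GLI1 and GLI2 were not level. The place of BOC in U87mg also rested in part on short transcripts. Of its TPM there, 17.0% came from 13 of 621 counts on the 317-base BOC-208. The 1286-base BOC-211 took 28.6% and the 20-exon BOC-201 8.58%, whereas GLI3-201 took 89.4% of the TPM of GLI3.

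Genes that are transcribed in response to the pathway in other tissues, from a list made for this purpose, differed between the lines in 10 of 11 cases at 0 h. In DAOY 8 were called as higher and 2 as lower, against 23.4% and 17.8% of all genes tested. Within U87mg 5 of the 11 passed the filter on low counts, against 11 in DAOY, so CCND2, MYCN, NKX2-2, NKX6-1, JAG2 and SFRP1 were tested through DAOY, where they were high, and the 8 calls cannot be read as a direction of the list. Of the 5 that passed in both lines, BCL2 and FOXF1 were called as higher, CCND1 and FOXL1 as lower, and FOXM1 was not called. SFRP1, a secreted Wnt antagonist, was at 22.6, 22.4 and 28.2 TPM in DAOY and at 0, 0.106 and 0.0268 TPM in U87mg. CCND2, a D-type cyclin, was at 7.37, 11.5 and 23.5 TPM against 0.0448, 0.0831 and 0.546 TPM. These were the largest contrasts of the list with U87mg counts above 3, with ratios of 539 and 219 in summed normalised counts.

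MYCN, a driver of precursor division, was at 0.434 to 1.07 TPM in DAOY at 0 h and listed at 0 in all 9 U87mg libraries, at least 13.4-fold higher. NKX2-2, a homeobox gene of the ventral neural tube, was likewise listed at 0 in U87mg and at least 24.8-fold higher in DAOY. JAG2, a Notch ligand, was 20.1-fold higher. CCND1 and FOXL1 went the other way. CCND1, another D-type cyclin, was at 93.7, 28 and 79.2 TPM in DAOY and at 372, 326 and 357 TPM in U87mg, a log2 difference of -2.40 ± 0.37 (SE; edgeR adjusted p = 2.17e-05), and FOXL1, a mesenchymal forkhead factor, differed by -3.73 ± 0.27.

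Of 3 markers used for the Hedgehog class of medulloblastoma, ATOH1 had no entry among the genes analysed here, EYA1 had a log2 difference of -0.82 ± 0.20 and PDLIM3 one of 5.34 ± 0.43. PDLIM3 was at 23.5, 25.4 and 29.7 TPM in DAOY at 0 h and at 0.671, 0.371 and 0.821 TPM in U87mg. Over all lists of pathway genes outside the 9, 47 of 53 genes in the table were tested at 0 h, and 17 were called as higher and 6 as lower in DAOY. For this comparison 23.4% of all genes tested were called as higher and 17.8% as lower, which is also the background of the marker lists below. Within U87mg 38 of the 47 pathway genes passed the filter on low counts, against 47 in DAOY, so the 17 and 6 cannot be read as a direction of the pathway. Among the marker lists, 3 of 5 tested cerebellar genes were called as higher in DAOY, 3 of 6 tested glial genes as lower and 1, SOX2, as higher, 1 of 1 blood gene (CD68) as lower, 1 of 1 epithelial gene (EPCAM) as lower, and the 2 tested endothelial genes as 1 higher (PECAM1) and 1 lower (VWF). EN2, OTX2 and SOX2 did not pass the filter on low counts within U87mg, nor EPCAM and VWF within DAOY. They were tested through the line in which they were high, so their calls cannot be read as a direction of these lists.

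**Figure D3:**
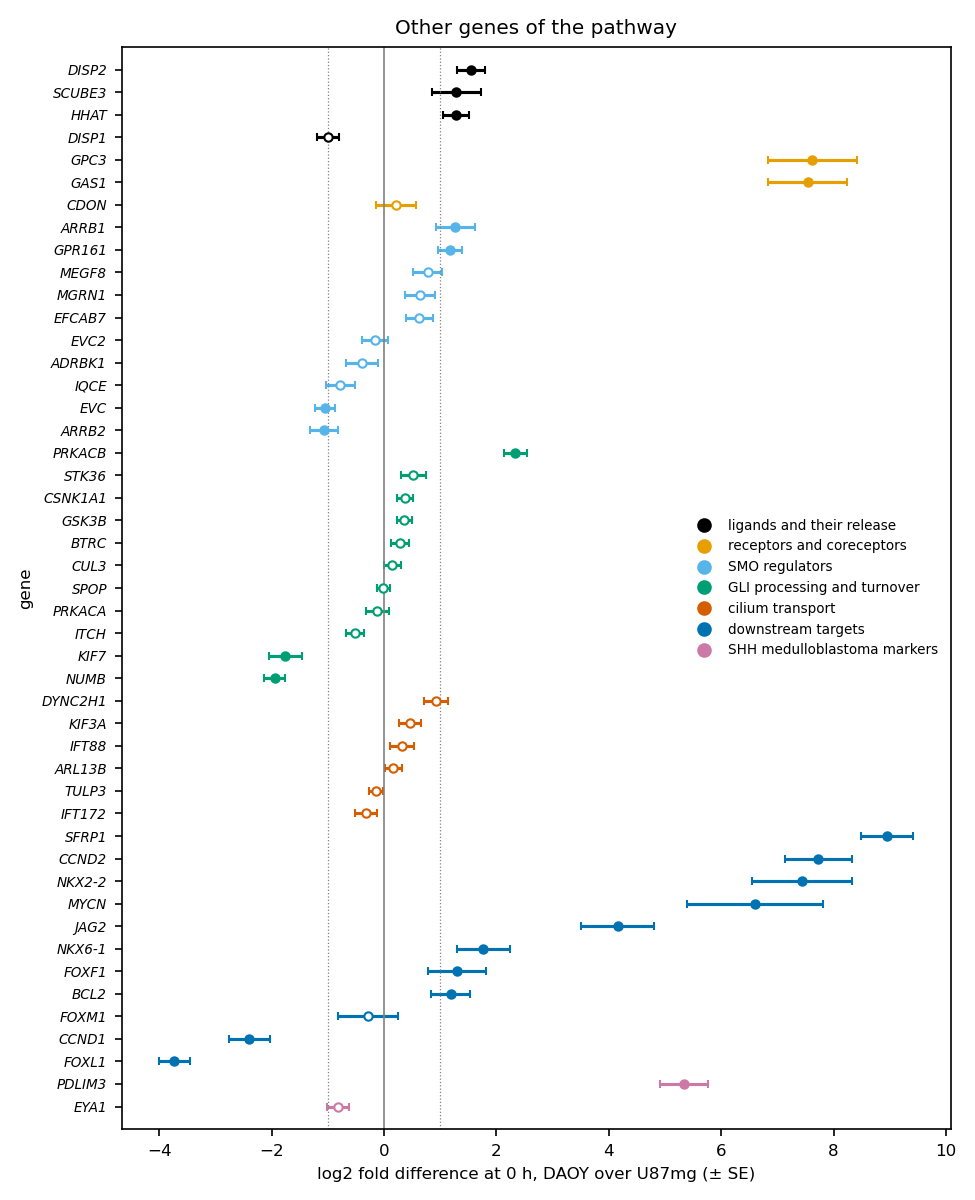
Log2 fold difference of DAOY over U87mg at 0 h (horizontal axis, bars of 1 SE) for the 47 tested genes of the other pathway lists (vertical axis), coloured by list, with filled points for called genes and dotted lines at the size needed for a call. The target genes spread from FOXL1 at -3.73 to SFRP1 at 8.95, whereas the 6 cilium genes lay between -0.33 and 0.92. Points of GPC3, MYCN and NKX2-2 rest on U87mg groups with 0 counts.

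The exposure itself was examined within each line, 2 h and 8 h against 0 h. None of the 9 genes was called in either line or at either time by edgeR's quasi-likelihood test, and DESeq2 and limma called 0 as well. Over all genes tested, 0.00% were called at 2 h in both lines, and 0.638% in U87mg and 3.13% in DAOY at 8 h. In U87mg 6 of the 9 genes were tested, since SHH, SMO and HHIP did not pass the filter on low counts, and in DAOY 8 were tested, without GLI1. Of all genes tested at 8 h, 0.184% were called as higher and 0.454% as lower in U87mg, and 1.19% as higher and 1.94% as lower in DAOY. At 2 h the CPM of the groups did not overlap for 13.8% of all genes in U87mg and 6.92% in DAOY, and for 0 of the Hedgehog genes in both lines. At an unadjusted p under 0.05 there were 0 of the Hedgehog genes at 2 h in either line, and 1 at 8 h in each. These counts were not compared with the share of all genes at that unadjusted p, so they cannot be read as a response.

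The U87mg gene with an unadjusted p under 0.05 was GLI2. It was at 2.95, 5.03 and 4.72 TPM at 0 h, 3.6, 3.75 and 2.72 TPM at 2 h, and 4.25, 2.2 and 2.22 TPM at 8 h. The groups overlapped, with 2 of 3 libraries at 8 h below every library at 0 h. The log2 change at 8 h was -0.68 ± 0.24 (SE; edgeR unadjusted p = 0.0164, adjusted p = 0.194). The other tested genes changed between -0.54 (BOC at 2 h, ± 0.35) and 0.17 (GLI3 at 8 h, ± 0.15).

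HHIP was not tested within U87mg, but its counts there were 3, 2 and 4 at 0 h, 1, 2 and 2 at 2 h, and 0, 0 and 0 at 8 h. In DAOY HHIP held 35, 67 and 24 counts at 0 h and 47, 41 and 47 at 8 h. Tested as the difference of the 8 h changes in a fit of all 18 libraries, HHIP had a log2 value of 4.63 ± 1.01 for DAOY minus U87mg (SE; edgeR unadjusted p = 0.00038, adjusted p = 0.172). Its size depends on the offset the fit adds to the 0 counts, and with limma on log2(TPM + 1) it was 0.26. For these differences of changes 0 of the 9 genes were called at 2 h and 0 at 8 h. Of all genes tested 0.00% and 0.0121% were called. At an unadjusted p under 0.05 there were 0 and 1 of the 9, counts not compared with the share of all genes. DESeq2 and limma called 0 there too.

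**Figure D4:**
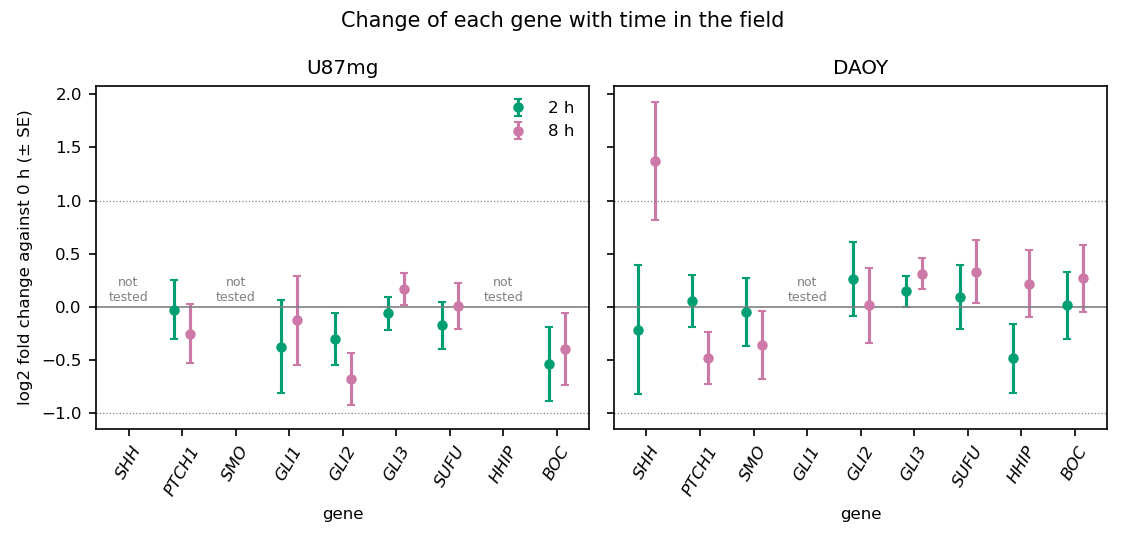
Log2 fold change of each gene (horizontal axes) at 2 h and 8 h against 0 h (vertical axis, bars of 1 SE) in U87mg (left) and DAOY (right), with dotted lines at the size needed for a call. Genes that did not pass the filter on low counts are marked as not tested. SHH in DAOY at 8 h (1.38 ± 0.55) was the one point beyond a dotted line, and its adjusted p of 0.171 did not pass.

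In DAOY the gene with an unadjusted p under 0.05 was SHH at 8 h. Its counts were 8, 4 and 13 at 0 h, 4, 12 and 5 at 2 h, and 18, 17 and 29 at 8 h. In CPM these were 0.905, 0.311 and 1.32 at 0 h and 1.60, 1.87 and 2.93 at 8 h, so every 8 h library lay above every 0 h library. The log2 change was 1.38 ± 0.55 (SE; edgeR unadjusted p = 0.0313, adjusted p = 0.171) and ranged from 0.95 (without DAOY 0 h replicate 1) to 1.89 as single libraries were left out. At 2 h the change was -0.21 ± 0.61.

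GLI3 was the other DAOY gene whose groups did not overlap at 8 h, as was the case for 26.1% of all genes tested. It was at 88.7, 83.6 and 79.8 CPM at 0 h and at 99.95, 98.94 and 109.5 CPM at 8 h. The log2 change was 0.31 ± 0.14 (SE; edgeR unadjusted p = 0.0537, adjusted p = 0.228). PTCH1 was at 10.9, 8.92 and 9.99 TPM at 0 h and at 6.90, 6.57 and 6.07 TPM at 8 h in DAOY, without overlap in TPM. In CPM it was at 11.5, 16.2 and 18.2 against 11.99, 7.80 and 12.6, with overlap, and the log2 change was -0.48 ± 0.24 (SE; edgeR unadjusted p = 0.0742, adjusted p = 0.271).

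The other DAOY genes changed between -0.48 (HHIP at 2 h, ± 0.33) and 0.33 (SUFU at 8 h, ± 0.30). SMO at 8 h had a log2 change of -0.36 ± 0.32, which became 0.04 without DAOY 0 h replicate 1, the library with the highest SMO, HHIP and GAS1 of that group. The 47 tested pathway genes outside the 9 gave 0 calls in DAOY at 2 h and 8 h, with 2 and 8 at an unadjusted p under 0.05, and the 38 tested in U87mg gave 0 calls at both times, with 7 and 5. These counts were not compared with the share of all genes at that unadjusted p, so they cannot be read as a response of the lists. The gene of these lists with the lowest adjusted p was NUMB in DAOY at 8 h, with a log2 change of 0.71 ± 0.16 (SE; edgeR adjusted p = 0.0341), below the size needed for a call. Of the marker lists, EN2 (log2 change 1.18 ± 0.20, edgeR adjusted p = 0.0142) and SLC1A3 (1.76 ± 0.28, adjusted p = 0.0115) rose in DAOY at 8 h. The 7 listed cerebellar genes summed to 46.2 to 54.4 TPM in the DAOY libraries at 0 h and to 64.5 to 78.0 TPM at 8 h, and the part of this shift in the SHH, GLI3 and PTCH1 values was not tested.

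The genes whose log2 CPM followed each Hedgehog gene most closely over the 18 libraries were read from Pearson correlations, which are given as a description because the libraries share the contrast between 2 lines. SMO was followed by GALNT14 (r = 0.999), HOXC12 and KCTD15. PTCH1 was followed by ACVR1B (0.980), GLI3 by CHD8 (0.991), HHIP by LEF1 (0.988), BOC by CTSF (0.974), GLI2 by NPTXR (0.969), SHH by SNX9 (0.968), GLI1 by PPP1R3C (0.948) and SUFU by MRPL14 (0.885). With the mean of each line removed, the closest genes were BOC with GGT7 (0.915), PTCH1 with RPTOR (0.907), SHH with NDEL1 (0.902) and SUFU with RPL18 (0.901). LEF1 stayed among the 3 closest to HHIP (0.815), GALNT14 to SMO (0.860) and CHD8 to GLI3 (0.803).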

How the data were processed

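RNA was measured in 18 libraries (TruSeq stranded poly-A kit, single-end reads), with groups taken from the labels. The authors quantified reads with Kallisto 0.43.0 against GENCODE 24 (GRCh38.p5), and deposited estimated counts and TPM per transcript; replicates were not pooled. Their columns of fold changes and p- and q-values from sleuth 0.28.1 were not used. Of 36 columns of values per sample, 0 were left unassigned. Estimated counts, of which 87.8% of the values above 0 were not whole, were summed per gene name and rounded. edgeR 4.0.16 (filterByExpr, TMM, quasi-likelihood test, Benjamini-Hochberg adjustment) was fitted on all 18 libraries for the lines and the differences of changes, and on the 9 of a line for the exposure. A call needed an adjusted p below 0.05 and a log2 value of at least 1. The 3 channels per replicate were pooled before sequencing and the libraries chosen by quality by the authors, so p-values measure the spread between these libraries. DESeq2 1.42.0 and limma 3.58.1 were alternatives. In counts simulated from these libraries for the lines at 0 h (16482 genes), 57 of 100 genes changed by a log2 of 1.5 and 81 of 100 changed by 2 were called, and for DAOY at 8 h against 0 h (15396 genes) 58 and 82. Folds against a group with 0 counts used a floor of 3 counts over the group. Correspondence of transcripts, positions and overlaps used GENCODE 29, in which 76 of 77 transcripts matched; promoters were from RefSeq (GRCh38.p14). The genes and lists were chosen with earlier results of these data known. Other pathway genes were named where called (up to 5 per list by size) or as defining genes of a list, and transcripts at 10% of a gene's TPM in a line; DISP1, DYNC2H1, EYA1, FOXL1, NUMB at 8 h and the marker genes were named after their values were seen. The values of 1 listed gene are not reported here.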

Additional observations from a re-analysis of the deposited data

How the results depend on the processing

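With at least 10 counts required in every sample, 4 of the Hedgehog genes were called between the lines at 0, 2 and 8 h in place of 8, because that filter removed SHH, SMO, GLI1 and HHIP from the test. On log2(TPM + 1) values in limma 7, 6 and 6 were called. With only the samples compared in the fit 6, 6 and 8 were called, since SHH and GLI1 then went untested at 0 h and 2 h, and with length-scaled counts 7, 8 and 8. As single libraries were left out, the number called ranged from 7 to 8 at 0 h and stayed at 8 at 2 h and 8 h. SUFU, which was not called, ranged from -0.33 to 0.087 at 0 h, changing sign without DAOY 0 h replicate 0, and from -0.089 to 0.22 at 2 h, changing sign without DAOY 2 h replicate 0 or U87mg 2 h replicate 2. GLI1 ranged from -3.09 to -1.80 at 0 h. Within lines, 15 of 28 changes took another sign under some alternative, the largest of size 0.36, and among the differences of changes 7 of 18 did, the largest of size 1.65; 0 of either were called under any alternative run. Same-numbered libraries of different times had correlations of deviations with a median of 0.118 (lowest -0.14) in U87mg and 0.058 (lowest -0.18) in DAOY, against -0.031 and -0.14 for other numbers, and 10 of 18 libraries correlated best with their own number; as not every pair was above 0.1 and the labels name no shared batch, the numbers were not taken as pairs. With the replicate block 8 genes were called between the lines at each time and 0 in the other comparisons. Summing by GENCODE 29 gene identifier, added after seeing the data, changed no call of a Hedgehog gene. Depth limits SHH, GLI1 and, in U87mg, HHIP and SMO, which rest on few or 0 counts.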
